A study of Homo sapiens with 8 samples.

Results

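PDX1 encodes a homeodomain transcription factor and lies on the forward strand of chromosome 13 at chr13:27920000-27926313 (hg38, GENCODE release 44). The locus was taken as the gene with 100 kb to its left and right, chr13:27820000-28026313, a window of 206.314 kb that was set by position. H3K27ac peaks of the 4 libraries were joined into a region wherever they overlapped by 1 bp or more, and 12 of the 15752 regions in the genome fell in the window. These 12 regions held 40 of the 53053 peaks. DMSO replicates 1 and 2 each had 10 peaks in the window, I-BET151 replicate 1 had 11 and I-BET151 replicate 2 had 9.

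PDX1 is required for the pancreas to form, is held at a high level in pancreatic progenitors (PPs), and later drives insulin transcription in β cells. H3K27ac is an acetylation of histone H3 found at active promoters and enhancers, and BET proteins are readers that bind acetylated lysines through their bromodomains. The PDX1 gene sits between GSX1 and CDX2, and these genes form the ParaHox cluster. CDX2 is best known as a factor of the intestinal epithelium. PLUT is a long noncoding RNA transcribed away from PDX1 on the opposite strand, and conserved enhancers have been mapped in the stretch upstream of PDX1.

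The PPs were differentiated from MEL1, an established embryonic stem cell line that the study's methods list as MEL1 INS GFP/W, with a GFP reporter at 1 insulin allele, and were grown in EF6, a basal medium of DMEM and B27. It contained EGF at 50 ng/ml, bFGF at 10 ng/ml and the TGFβ inhibitor 616452 at 10 μM. All groups shared this medium. The DMSO group received the solvent and the I-BET151 group received 1 μM of I-BET151, an inhibitor of BET bromodomains, for 7 days. Each group had 2 H3K27ac ChIP-seq libraries and 2 input libraries of chromatin that was not immunoprecipitated. The 4 H3K27ac libraries each had a peak list of their own. The labels do not say whether replicates were separate cultures, so the tests measure only the spread between these libraries, and all cells were of 1 line.

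The libraries held 7.76 to 9.85 M ChIP reads after duplicate removal and 2.67 to 3.04 M input reads, as worked out from the lists. The lists held 12312 to 14248 peaks, and the I-BET151 lists were the shorter ones. Of 9 PP marker genes, 8 had a peak within 3 kb of a start in all 4 lists and PTF1A had none. None of the 2 pluripotent, 4 endocrine, 3 hepatic and 4 mesenchymal or feeder markers had one, and of 3 intestinal markers CDX2 and CDX1 had one in all 4 lists. Peak heights have a ceiling if duplicate removal left 1 read per position and strand, which is assumed here. Heights are given as reads at the summit per M ChIP reads of the library (RPM). On that assumption the most that a summit could show was 68.4 and 50.2 RPM in DMSO replicates 1 and 2, and 65.4 and 61.9 in I-BET151 replicates 1 and 2.

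Peaks lay at PDX1 itself and in a cluster from LINC00543 to URAD, and the rest of the window was empty (map of the window). From the PDX1 start towards the left end of the window, 2 regions were called, both within 3 kb of the start. The body of PLUT, which reaches beyond that end of the window, held no peak in any list. To the right, 30686 bp without a peak separated PDX1 from a region at LINC00543, a long noncoding RNA. CDX2 carried 5 regions at or beside it and URAD, an enzyme gene of urate breakdown, carried 3. No list had a peak in GSX1 or FLT3, or in RNU6-73P, ATP5F1EP2 and RN7SL272P, and none in KATNBL1P1 beyond the right end.

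**Figure D1:**
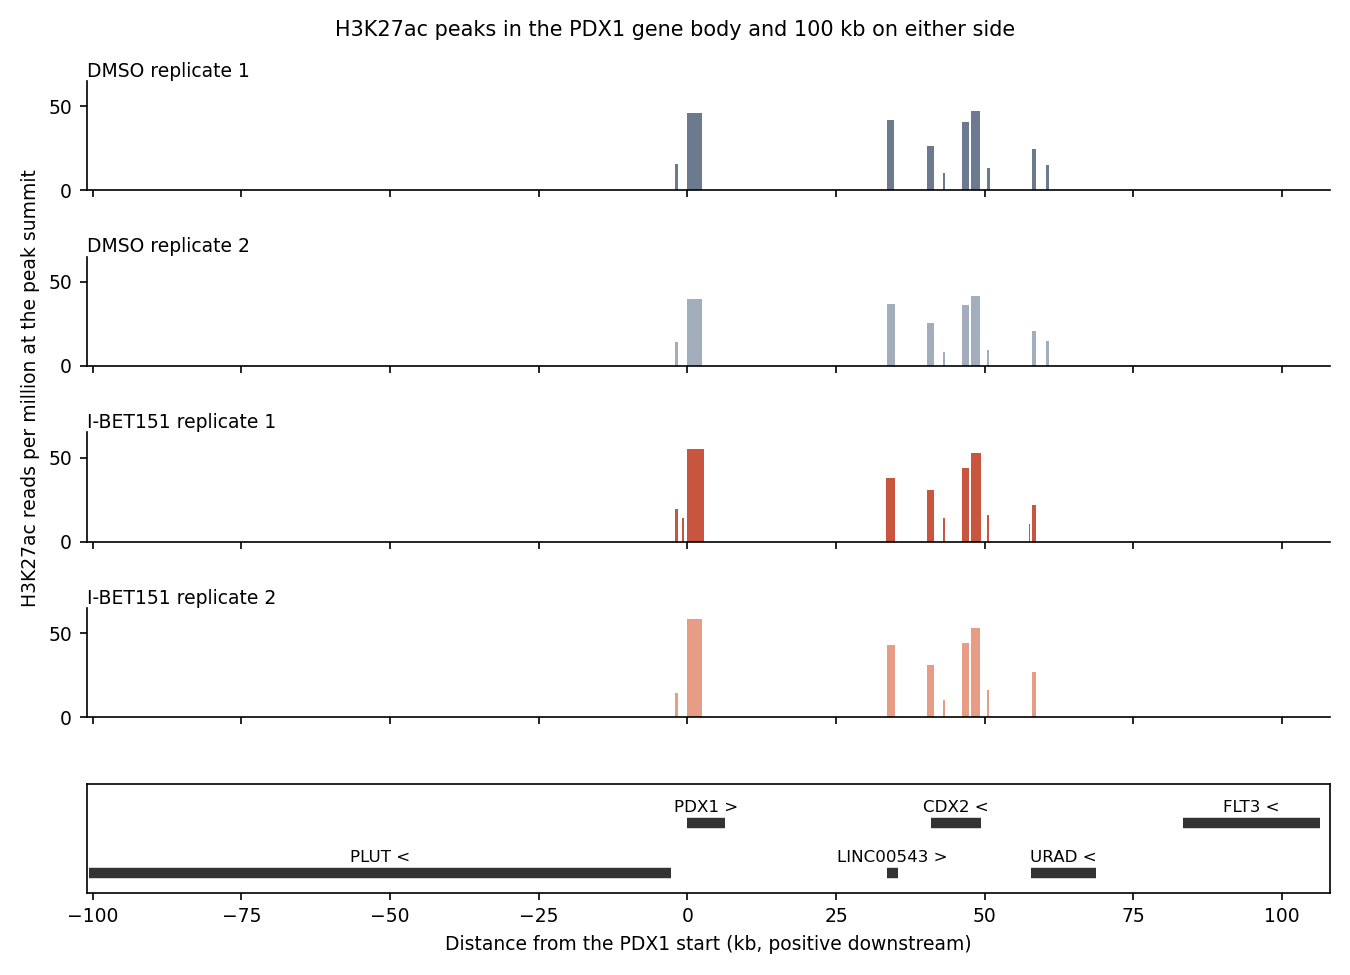
H3K27ac summit height in RPM (vertical axis, each bar as wide as its peak) against distance from the PDX1 start in kb, 1 panel per library, with genes drawn below and arrows for their strand. Peaks stand at PDX1 and between LINC00543 and URAD in all 4 libraries, and none lies over PLUT or FLT3.

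In the window 9 of 12 regions were called in all 4 lists, as 65.5% of all regions were, and the lists differed at 3. No region was gained, that is called in both I-BET151 and neither DMSO list, where 2.81% of all regions were. One region, in an intron of URAD, was lost, that is called in both DMSO and neither I-BET151 list, as 8.60% of all regions were. The remaining 2 regions were called in I-BET151 replicate 1 only, as 3.14% of all regions were.

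The sequences of 4 regions are shown, because they are the upstream PDX1 regions, the region upstream of CDX2 that passed the test per region, and the region in the URAD intron that was lost. Each is 151 bases of the hg38 forward strand around the strongest summit, and capitals mark matches to the motifs described after them. The region far upstream of PDX1 covered chr13:27917870-27918407 and its sequence is that of chr13:27918049-27918199. The near upstream region covered chr13:27919047-27919395 (sequence chr13:27919146-27919296), the region upstream of CDX2 covered chr13:27970302-27970793 (sequence chr13:27970481-27970631) and the URAD intron region covered chr13:27980310-27980847 (sequence chr13:27980568-27980718).
PDX1 far upstream: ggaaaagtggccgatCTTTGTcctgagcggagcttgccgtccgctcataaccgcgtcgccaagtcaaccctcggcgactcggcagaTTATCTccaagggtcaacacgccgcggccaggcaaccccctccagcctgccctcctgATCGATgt
PDX1 near upstream: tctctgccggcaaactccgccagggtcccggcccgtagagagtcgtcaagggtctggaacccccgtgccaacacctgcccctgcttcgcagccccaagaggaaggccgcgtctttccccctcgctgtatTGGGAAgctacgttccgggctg
CDX2 upstream: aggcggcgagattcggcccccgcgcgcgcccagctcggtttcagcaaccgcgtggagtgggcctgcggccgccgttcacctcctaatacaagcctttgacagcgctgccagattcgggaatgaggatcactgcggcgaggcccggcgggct
URAD intron: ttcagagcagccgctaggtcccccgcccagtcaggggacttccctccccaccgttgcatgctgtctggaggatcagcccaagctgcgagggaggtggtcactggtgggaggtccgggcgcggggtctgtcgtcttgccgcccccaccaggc

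Motifs were searched on both strands within 150 bp of each region's strongest summit. The far upstream region of PDX1 held the GATA motif (AGATAA), found 11 bp from the summit and in 2.39% of all regions. It also held an HNF6 motif, searched as ATCGAT and also as ATCAAT, found 68 bp from the summit and in 1.56% of all regions, and 2 matches to a SOX motif. The SOX motif was searched as ACAAAG, with ACAATG and also with ACAATA as its other forms, and was in 15.3% of all regions. The second SOX match lay 123 bp from the summit, beyond the bases shown. HNF6 is the protein of ONECUT1, and GATA and SOX factors include the progenitor factors GATA4, GATA6 and SOX9. The near upstream region held 1 RBPJ match (TGGGAA), 54 bp from the summit. RBPJ is the DNA-binding partner of Notch, and its motif was in 20.1% of all regions and in 3 of 12 here, the others being LINC00543 and the region downstream of URAD. The HNF1 half-site (GTTAAT, in 1.28% of all regions) was in 1 of 12, the first intron of CDX2. The homeodomain core TAATTA, the FOXA motifs TGTTTAC and TATTTAC and the AP-1 motifs TGACTCA and TGAGTCA were in none of the 12, and in 0.667%, 1.66% and 2.86% of all regions. None of the 8 motifs was found at the strongest summits of the PDX1 start, CDX2 start, CDX2 upstream and URAD intron regions. The strongest summits beyond the CDX2 end and in the last exons of CDX2 and URAD also held none. Around that PDX1 summit 75.4% of bases were G or C, against a median of 68.8% over all regions, and the value was 64.1% far upstream and 50.8% near upstream.

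The region at the PDX1 start was the widest in the window and covered chr13:27919858-27922760. It took in the first exon (chr13:27920000-27920544, coding from 27920139) and part of the only intron, and it ended short of the second exon (chr13:27924256-27926313). Its summits lay within 30 bp of each other, 287 bp from the start in I-BET151 replicate 1, and in the coding part of the first exon (map of peak intervals around PDX1). In DMSO replicates 1 and 2 the peak was 2476 and 2517 bp wide, and in I-BET151 replicates 1 and 2 it was 2903 and 2528 bp. Both treated widths were above both control widths, that of I-BET151 replicate 2 by little. Of the 9 regions called in all 4 lists, 2 were wider in this way and 0 narrower, against 16.0% and 33.3% of all regions called in all 4 lists.

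**Figure D2:**
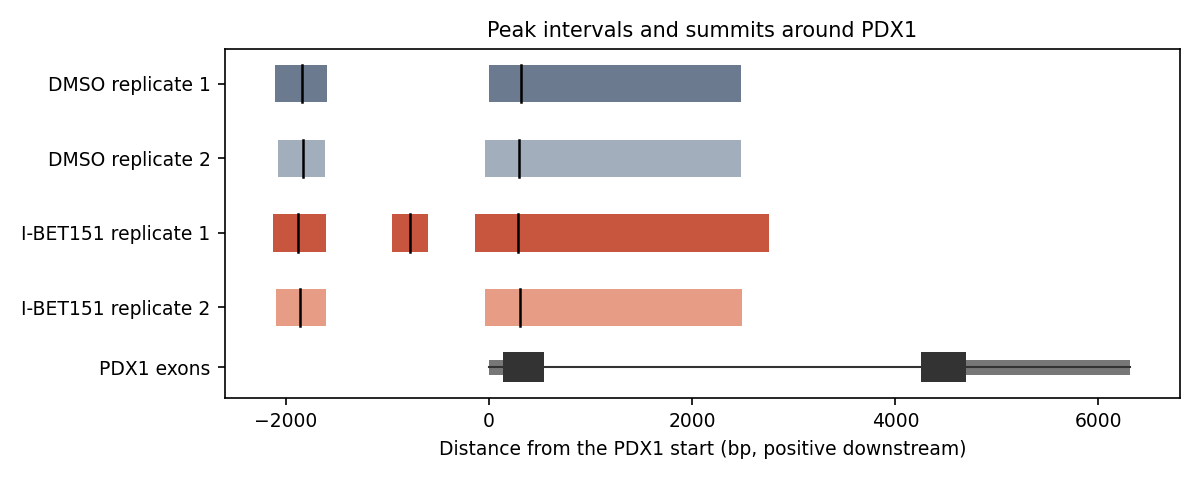
Peak intervals (bars) and summits (black lines) in each library against distance from the PDX1 start in bp, with exons below (thick, coding; thin, untranslated). The start region spans 2476 to 2903 bp in all 4 libraries, the far upstream region is in all 4, and the near upstream region is in I-BET151 replicate 1 only.

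H3K27ac at the PDX1 start was higher in both I-BET151 libraries than in both DMSO libraries, in fold enrichment and in reads, but the difference in reads did not pass the test. At its summit DMSO replicates 1 and 2 had 365 and 394 ChIP reads, or 45.9 and 40.0 RPM. I-BET151 replicates 1 and 2 had 429 and 469, or 55.3 and 58.3 RPM. The groups did not overlap. The means were 43.0 ± 4.16 RPM in DMSO and 56.8 ± 2.17 in I-BET151 (SD, n = 2 each), a log2 difference of 0.41 ± 0.16 (SE, limma adjusted p = 0.0512). Both I-BET151 values lay above the 50.2 RPM that DMSO replicate 2 could reach, and the summits stood at 67.1%, 79.8%, 84.4% and 94.2% of the ceiling in DMSO replicates 1 and 2 and I-BET151 replicates 1 and 2. After reads were corrected for filled positions the difference was 0.91 (limma adjusted p = 4.27e-06), and after each library was centred on its median it was 0.46 (limma adjusted p = 0.000990), both alternatives chosen after the data were seen. Without DMSO replicate 1 it was 0.50 (limma adjusted p = 1.47e-23) and without DMSO replicate 2 it was 0.31 (limma adjusted p = 4.69e-08), where the lone control library was taken to vary like the treated pair. Without I-BET151 replicate 1 or 2 the limma adjusted p was 0.595 or 0.638.

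The fold enrichment at the PDX1 start, the authors' ratio of ChIP to local input at the summit, was 5.85 and 7.79 in DMSO replicates 1 and 2. It was 10.6 and 9.21 in I-BET151 replicates 1 and 2. In DMSO replicate 1 the local input was 23 reads, the highest of the 4, against 14 in DMSO replicate 2, 15 in I-BET151 replicate 1 and 16 in I-BET151 replicate 2. Input levels overlapped between the groups, and the part of the input in the fold difference was not tested. The log2 difference in fold was 0.55 ± 0.36 (SE, limma adjusted p = 0.619), and the summit's −log10 q was 56.7 and 59.7 in DMSO and 107 and 90.4 in I-BET151. By significance the peak ranked at the top 18.5% and 11.3% of the DMSO lists and at the top 2.76% and 3.72% of the I-BET151 lists.

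**Figure D3:**
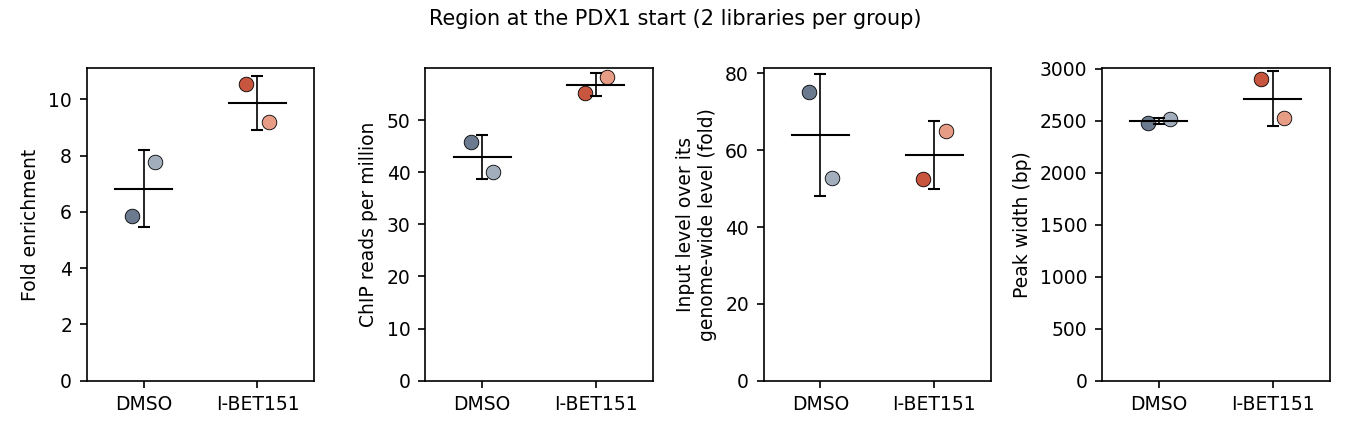
Fold enrichment, ChIP RPM, input level relative to the input's genome-wide level, and peak width in bp at the PDX1 start for DMSO and I-BET151 (points, libraries, replicate 1 left and replicate 2 right; lines and bars, mean ± SD, n = 2). Fold, reads and width are higher in both I-BET151 libraries than in both DMSO libraries, and input levels of 52.4 to 75.2 overlap.

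At the far upstream region of PDX1 the groups overlapped. It is annotated as intergenic, with the PLUT start as the nearest start, 826 bp away. Its summit had 15.5 and 14.2 RPM in DMSO replicates 1 and 2 and 19.2 and 14.2 in I-BET151 replicates 1 and 2 (log2 difference 0.15 ± 0.15 SE, limma adjusted p = 0.506). The fold was 13.0 and 8.44 in DMSO and 9.89 and 9.70 in I-BET151. On fold the log2 difference was −0.10 (limma adjusted p = 0.954), opposite in sign to that in reads, and without I-BET151 replicate 1 the difference in reads was −0.065 (limma adjusted p = 0.900). The peak was narrow, 460 to 523 bp in the 4 lists, and the fold in DMSO replicate 1 was above the fold at the PDX1 start in every library, on fewer reads (123) and a lower local input.

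The near upstream region was called in I-BET151 replicate 1 only, with a summit 779 bp upstream of the PDX1 start. There it was 349 bp wide with 107 reads (13.8 RPM), a fold of 11.9 and a −log10 q of 31.6. It lay 639 bp from the far upstream region and 462 bp from the start region. No value exists for the other libraries, and a missing peak means that none passed the threshold of the caller.

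At LINC00543, whose region covered chr13:27953447-27954848, heights overlapped between the groups. The summit lay 325 bp into the gene, with 41.7 and 37.1 RPM in DMSO replicates 1 and 2 and 38.0 and 42.9 in I-BET151 replicates 1 and 2 (log2 difference 0.04 ± 0.14 SE, limma adjusted p = 0.883). The fold did not overlap, at 10.6 and 7.74 in DMSO against 12.4 and 12.8 in I-BET151. The local input at this region was lower in both I-BET151 libraries, at 8.38 and 8 reads against 11 and 13 in DMSO. The non-overlapping fold thus stood beside overlapping heights and a lower input.

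At CDX2, 1 of 5 regions passed the test per region. It lay upstream of the gene at chr13:27970302-27970793, with its summit 1241 bp from the CDX2 start, and it was among the lowest in the window. It had 13.0 and 9.34 RPM in DMSO replicates 1 and 2 and 16.0 and 16.4 in I-BET151 replicates 1 and 2. The I-BET151 values were close together and above both DMSO values, which were further apart (log2 difference 0.56 ± 0.17 SE, limma adjusted p = 0.00523). Without DMSO replicate 2, the lowest library, the difference was 0.32 (limma adjusted p = 0.296), and on fold, 4.03 and 4.01 against 4.51 and 4.48, it was 0.16 (limma adjusted p = 0.897). At 18.6% to 26.5% of the ceiling, this summit was far from it in all 4 libraries. Of the 9 regions of the window called in all 4 lists 1 was called higher and 0 lower, against 9.82% and 14.1% of the 10293 regions tested.

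The CDX2 start region, chr13:27967677-27969303, had its strongest summit in coding sequence, 627 bp from the CDX2 start. It showed 46.9 and 41.3 RPM in DMSO replicates 1 and 2 and 52.4 and 53.3 in I-BET151 replicates 1 and 2, without overlap (log2 difference 0.26 ± 0.16 SE, limma adjusted p = 0.239). Next to it, 301 bp away, the first intron region (chr13:27966174-27967375) had 40.7, 35.9, 43.8 and 44.1 RPM in the same order of libraries (0.20 ± 0.14 SE, limma adjusted p = 0.326). The strongest summit of this region lay 296 bp from the annotated start of another CDX2 transcript. Both regions shared the order of the PDX1 start, with DMSO replicate 2 lowest and the I-BET151 pair highest. Fold at the first intron was 8.91 and 8.76 in DMSO and 16.5 and 11.9 in I-BET151, and at the start it was 6.52 and 6.71 against 9.43 and 11.0. At both, as at LINC00543, the input level relative to the genome was lower in both I-BET151 libraries. The summits at the CDX2 start stood at 68.6% to 86.1% of the ceiling. The difference at the CDX2 start passed after centring (0.32, limma adjusted p = 0.00829) and after correction for filled positions (0.45, limma adjusted p = 0.0135). It did not pass with replicate number as a block (limma adjusted p = 0.593) or on fold (0.62, limma adjusted p = 0.541). With a library left out it was 0.17 to 0.36. The difference at the first intron passed after centring (0.26, limma adjusted p = 0.0113) but not after correction (0.26, limma adjusted p = 0.170). Nor did it pass with the block (limma adjusted p = 0.676) or on fold (0.67, limma adjusted p = 0.566). With a library left out it was 0.11 to 0.29.

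Beyond the end of CDX2, a region at chr13:27960252-27961419 had 26.5 and 25.8 RPM in DMSO and 30.8 and 31.3 in I-BET151 (log2 difference 0.25 ± 0.12 SE, limma adjusted p = 0.130). Replicates were close and the groups did not overlap, although the summits of the 4 lists lay up to 610 bp apart. In the coding part of the last exon, chr13:27963017-27963384 had the lowest summits of the regions called in all 4 lists, at 10.4 and 8.12 RPM in DMSO and 14.0 and 9.95 in I-BET151 (0.36 ± 0.20 SE, limma adjusted p = 0.201). Those values overlapped, while fold, at 9.19 and 3.50 against 11.4 and 9.86, did not. The difference in height at this exon was 0.11 without I-BET151 replicate 1 (limma adjusted p = 0.857), 0.18 without DMSO replicate 2 (limma adjusted p = 0.697), 0.54 without DMSO replicate 1 (limma adjusted p = 0.152) and 0.61 without I-BET151 replicate 2 (limma adjusted p = 0.00809). At the end of CDX2 the difference passed after centring (0.30, limma adjusted p = 0.00370). It did not pass with replicate number as a block (limma adjusted p = 0.419) or on fold (0.18, limma adjusted p = 0.890).

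URAD held the region that was lost. In its intron, DMSO replicates 1 and 2 had peaks 516 and 493 bp wide with 121 and 148 reads, 15.2 and 15.0 RPM. These peaks were weak for their lists, with a fold of 3.63 and 2.62 over a local input of 12 and 16 reads, and a −log10 q of 11.1 and 5.59 that placed them 81.9% and 94.1% of the way down the ranking. Neither I-BET151 list had a peak there, and how many reads they had below the threshold cannot be read from the lists. With lists cut to equal length the region was no longer lost, since the peak of DMSO replicate 2 was not kept. The last exon region of URAD (chr13:27977940-27978672) had 24.8 and 20.6 RPM in DMSO and 22.0 and 26.98 in I-BET151, which overlapped (log2 difference 0.11 ± 0.12 SE, limma adjusted p = 0.580). Beside it, a peak of 261 bp at chr13:27977400-27977660 was called in I-BET151 replicate 1 only, with 81 reads (10.4 RPM) and a fold of 4.97.

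**Figure D4:**
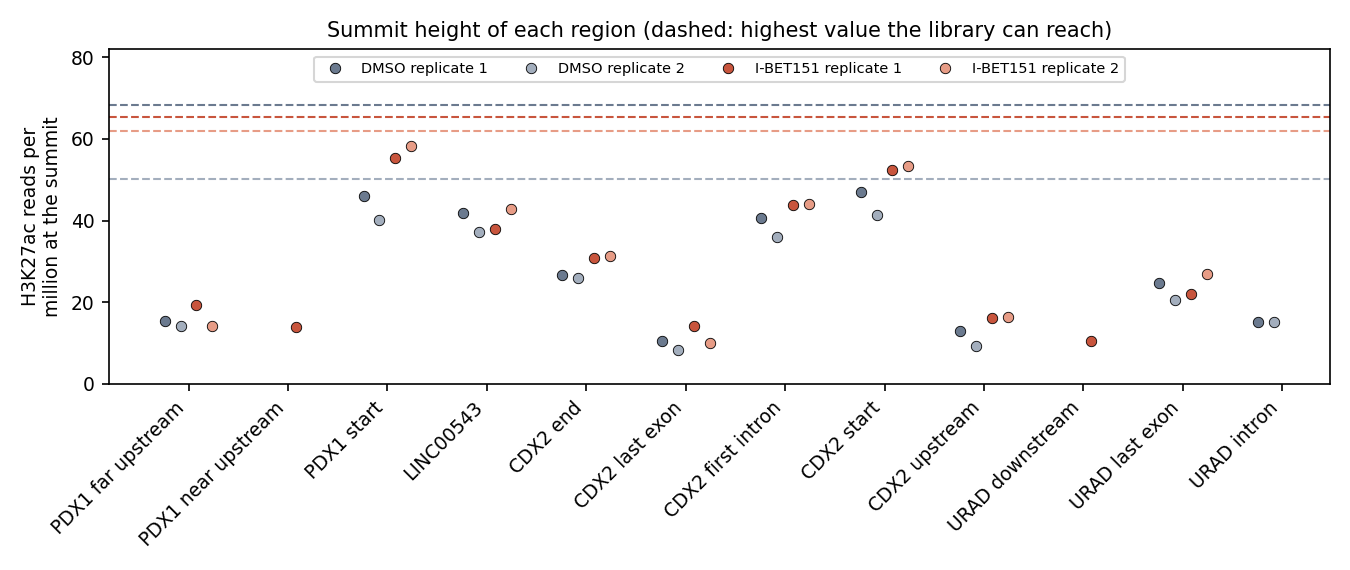
H3K27ac RPM at the summit (vertical axis) of the 12 regions in genome order, 1 point per library, with dashed lines for the highest value each library could show. At the PDX1 start and the CDX2 start the I-BET151 points, 52.4 to 58.3, lie above the ceiling of 50.2 of DMSO replicate 2, and LINC00543 and the URAD last exon overlap.

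Over the 9 regions called in all 4 lists, heights and fold leaned to I-BET151. The mean log2 height was 4.58 ± 0.16 in DMSO and 4.84 ± 0.02 in I-BET151 (SD, n = 2 each), a difference of 0.26 (two-sided exact permutation p = 0.333), and the mean log2 fold was 2.70 ± 0.14 and 3.08 ± 0.04, a difference of 0.38 (two-sided exact permutation p = 0.333). With 2 libraries against 2 this is the smallest p the test can give. The difference in height was 0.066 (exact permutation p = 0.667) with peaks merged within 500 bp, and 0.15 without DMSO replicate 2. A merged region is read at its peak of highest fold. For I-BET151 replicate 1 this moved the PDX1 start from its own summit, 55.3 RPM, to the near upstream peak, 13.8 RPM. The URAD last exon moved likewise from 22.0 to 10.4 RPM, so the 0.066 compares unlike peaks at these regions. RPM did not overlap at 5 of 9 regions, all higher in I-BET151, and 0 were lower, against 29.2% higher and 31.2% lower among all regions. These shares were not matched for height. Of the 9 regions, 5 stayed under 70% of the ceiling in all 4 libraries, as did 7843 of the 10293 regions tested. At the PDX1 start and the CDX2 start both I-BET151 values lay above the ceiling of DMSO replicate 2, 50.2 RPM. Fold did not overlap at 7 of 9, all higher, and 0 were lower, against 25.4% higher and 16.3% lower. The input level was higher at 2 and lower at 3 of 9, against 12.5% and 20.5%. The median log2 difference in height was 0.25 over the 9 regions, from 0.04 to 0.56, and −0.00074 over all regions, and in fold it was 0.48, from −0.10 to 0.90, against 0.08 over all regions. The 9 regions share libraries, depth and 1 stretch of chromosome and are not replicates.

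The total length covered overlapped between the groups in the full window, but not within 10 kb of PDX1. With 10 kb on either side, I-BET151 was higher by 416.5 bp (two-sided exact permutation p = 0.333, the smallest possible). Most of this came from I-BET151 replicate 1, and I-BET151 replicate 2 lay little above DMSO. I-BET151 replicate 1 alone had the near upstream peak of 349 bp. Its peak at the PDX1 start was 2903 bp wide, against 2528 bp in I-BET151 replicate 2 and 2476 and 2517 bp in DMSO replicates 1 and 2. With 50 kb on either side it was higher by 702.5 bp (two-sided exact permutation p = 0.667). In the full window, peaks covered 10096 and 9736 bp in DMSO replicates 1 and 2 and 10922 and 9525 bp in I-BET151 replicates 1 and 2. The highest and the lowest values were both from treated libraries. The means were 9916 ± 255 and 10223.5 ± 988 bp (SD, n = 2 each), a difference of 307.5 bp (two-sided exact permutation p = 1), which became −391 bp without I-BET151 replicate 1. The number of peaks had a mean of 10 in both groups (two-sided exact permutation p = 1).

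Compared with other genes, the PDX1 window was densely covered. Its mean coverage was above that of 97.9% of the 16664 protein-coding gene windows of this kind that held a peak, whose median was 1.92 kb. Of those windows 12.1% were higher and 48.5% lower in both I-BET151 libraries, and the PDX1 window was in neither class. Among 31 progenitor and lineage genes, 25 had a peak in their window, 15 were higher in both I-BET151 libraries, 3 were lower and 7 overlapped, PDX1 among them. The median difference was 0.49 kb in this list and −0.15 kb over all genes. Many of these genes are ones the study itself followed, so their direction is not independent evidence.

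Among the listed genes, the PDX1 window was second only to that of NOTCH1 in DMSO coverage (plot of coverage by gene). It also holds the regions of LINC00543, CDX2 and URAD, and the PDX1 start region covered 2496.5 bp of it on average in DMSO. NOTCH1, the Notch receptor, had 18.3 and 19.7 kb covered in I-BET151 replicates 1 and 2, against 10.2 and 12.2 kb in DMSO replicates 1 and 2. ONECUT1, an early progenitor factor, had 8.80 and 9.31 kb in I-BET151 against 6.20 and 5.98 kb in DMSO. NKX6-1, which with PDX1 defines the progenitors that give β cells, had 5.26 and 4.77 kb in I-BET151 against 4.47 and 4.53 kb in DMSO. These 3 genes were higher in both treated libraries, and SOX9 and FOXA2, also progenitor factors, were so by 0.958 and 1.31 kb on average. The 3 lower genes were HNF4A, a hepatic and endodermal nuclear receptor gene, by 1.03 kb, PAX4, an endocrine factor, by 0.953 kb, and MAFA, a β cell factor, by 0.733 kb. The windows of other genes of the endocrine lineage were higher in both treated libraries, from little coverage. That of NEUROG3, which starts endocrine differentiation, had 0.644 and 0.435 kb in I-BET151 against 0 and 0.295 kb in DMSO. No list had a peak within 3 kb of a NEUROG3 start, so this coverage lay elsewhere in its window. The window of RFX6 had 0.753 and 0.675 kb in I-BET151 and no peak in DMSO. NKX2-2, NEUROD1 and ISL1, genes of the endocrine lineage, were among those with no peak in their windows.

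**Figure D5:**
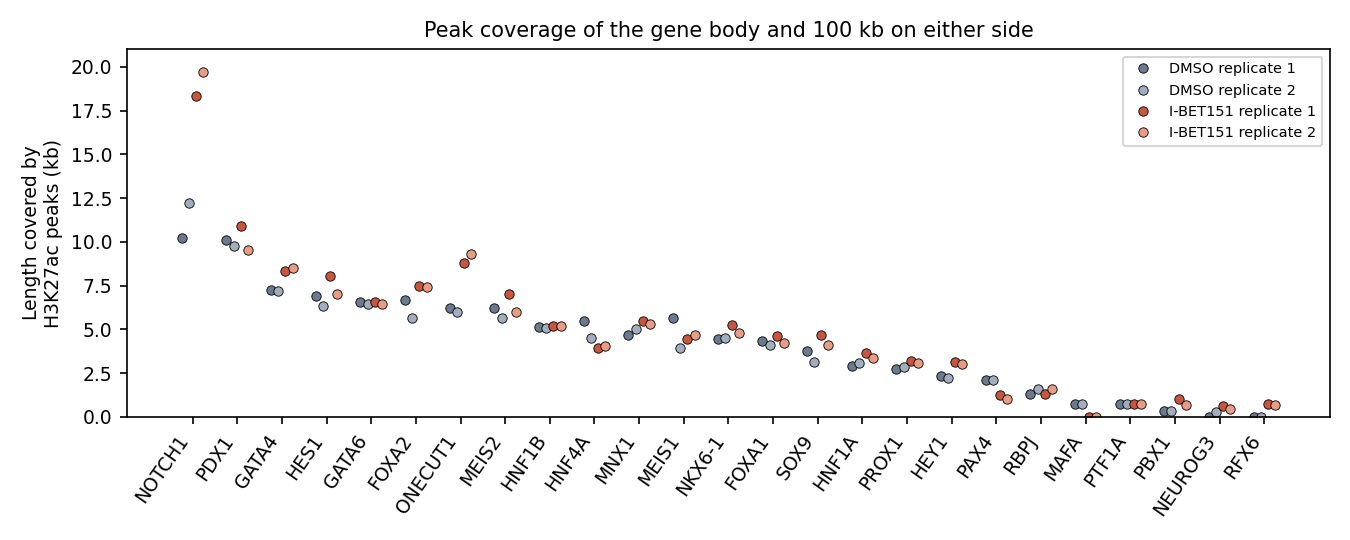
Length covered by H3K27ac peaks in kb (vertical axis) in windows that reach 100 kb beyond both ends of 25 progenitor and lineage genes with any peak, ordered by their DMSO mean, 1 point per library. The 4 points of PDX1 lie between 9.53 and 10.9 kb with the groups overlapping, while NOTCH1 and ONECUT1 are higher in both I-BET151 libraries.

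Within the ParaHox genes, PDX1 and CDX2 share all 12 regions in windows of this size, so they had the same coverage. GSX1, the third gene of the cluster, and CDX4 on chromosome X had no peak. GSX2 had 0.627 and 0.608 kb in I-BET151 against 1.02 and 1.02 kb in DMSO. CDX1 had 1.48 and 1.41 kb in I-BET151 against 1.77 and 2.43 kb in DMSO. Both were thus lower in both treated libraries, as 48.5% of all gene windows with a peak were. The genes whose coverage over the 4 libraries was nearest to that of PDX1, by Euclidean distance, were DPF2 and TIGD3, neighbours on chromosome 11 with the same values (0.717 kb), and ENSG00000256500 (0.791 kb).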

How the data were processed

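H3K27ac ChIP-seq was measured in 4 of 8 libraries. The other 4 are inputs, which entered only through the peak calls, and group and replicate came from library titles. The PDX1 window, the gene lists, motifs and tests were chosen with earlier results of these data known.

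The authors aligned reads to hg38 with Bowtie2 (version 2.2.5 in the submitters' processing notes), removed duplicates and mitochondrial reads, and called peaks per library with MACS2 (2.1.2) at default settings. The deposited lists give each peak's interval and summit, a score (a multiple of −log10 q, not used), summit fold enrichment (the ratio of ChIP to local background), and the p-value and q-value as −log10. Signal below the caller's threshold is not in such lists, and duplicate removal limits peak height.

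The deposited lists hold no read counts. ChIP reads and local input at each summit were worked out from fold and p, which MACS2 computes from pileup and local input, and 99.87% to 99.95% of peaks were resolved. Local input is on the scale of the input library, and relative values are over that library's genome-wide level. The height ceiling is taken as 2 reads per base of the extension length (247 to 272 bp), and the highest summits, 478 to 500 reads, lay below the ceilings of 494 to 544. Recovery was tested on simulated data. SDs and limma SEs come from the spread between libraries, and read numbers are given without an error.

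Regions are peaks merged at 1 bp. Single values were compared by a two-sided exact permutation test over 6 assignments (smallest p = 0.333). Summit heights were tested with limma 3.58.1 (R 4.3.3, Benjamini-Hochberg adjusted, threshold 0.05) over the 10293 regions with reads resolved in all 4 lists, a test added after the data were seen and checked on simulated data. Correction for filled positions multiplied the ceiling by −ln(1 − reads/ceiling). Named genes were PDX1, all genes overlapping the window and the nearest beyond each end, the listed genes (1 of them is not reported here), and the 3 genes closest in coverage. Coordinates are 1-based. Alternatives were window sizes, stricter or equal-length lists, merging rules, centring, a ceiling limit, a replicate block and leaving out each library.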

Additional observations from a re-analysis of the deposited data

Results flagged for a closer look

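The input at the PDX1 start stood far above its genome-wide level in all 4 libraries. It was 75.2 and 52.8 times that level in DMSO replicates 1 and 2, and 52.4 and 65.0 times in I-BET151 replicates 1 and 2. It was marked because the input libraries have no list or comparison of their own. Among the 9 regions of the window called in all 4 lists, the input level was lower in both I-BET151 libraries at LINC00543, the CDX2 first intron and the CDX2 start, and higher in both at CDX2 upstream and the URAD last exon. The part of the input in the fold values was not tested.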

How the results depend on the processing

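Of 168 alternative values for 18 results, 136 were unchanged, 12 newly passed 0.05, 2 no longer did, 9 changed sign and 9 counts or differences in counts moved. The cause of the changes was not tested. Unchanged meant the same sign or a like count, and for limma differences also the same side of 0.05. Values compared by the exact test were not judged by their p. For them the replicate block repeats the reported difference by construction. The 200 kb window, a −log10 q of at least 5 and the 50% overlap rule also returned the reported values. Calls by limma in the window, 1 of 9 as reported, were 0 on fold, 5 after centring on each library's median, 3 after correction for filled positions, 1 of 5 under 70% of the ceiling, 1 with the replicate block and 1 to 4 (4 without DMSO replicate 1, 2 without DMSO replicate 2 or I-BET151 replicate 2) when a library was left out. Of all 10293 regions 1011 were higher and 1451 lower (41.1% of calls higher), against 2458 and 1617 (60.3%) after centring, and 3 and 6 on fold. The log2 height difference at the PDX1 start was 0.46 after centring, 0.91 after correction and 0.31 to 0.50 with a library left out. With the replicate block it was 0.41 (limma adjusted p = 0.318). Same-numbered libraries had a correlation of deviations of 0.050 in 2 pairs, so the numbers do not show pairing, and the block changed no call in the window. With equal list lengths the difference in peaks was 1.5 and 0 regions were lost. With a library left out, the coverage difference ran from −391 to 1006 bp and gained regions from 0 to 2 (2 without I-BET151 replicate 2, when the regions of I-BET151 replicate 1 alone count as gained). Differences that changed sign were PDX1 far upstream (−0.096 on fold, −0.065 to 0.37 with a library left out), LINC00543 (−0.031 after correction, −0.050 to 0.13) and the URAD last exon (−0.045 on fold, −0.037 to 0.26). Depth limits the weakest regions, where 80 to 150 reads stand at a summit, and the ceiling limits the highest. With 2 libraries a group the exact test cannot pass 0.05.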
